A study of Salvia miltiorrhiza with 5 samples.

Results

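The plastid methylerythritol phosphate (MEP) pathway was followed through 11 unigenes of 6 enzyme genes in hairy roots of *Salvia miltiorrhiza*. A unigene is a transcript assembled from the reads without a genome. The 11 are single unigenes chosen from the gene list of the study, out of 55588 unigenes in all, with earlier results of these data known. They are *DXS2* (SmiContig21878), 4 unigenes of *DXR*, 3 of *CMK*, and 1 each of *MCS*, *HDS1* and *IDS*. The list holds 7 other MEP unigenes that are not members, which are *DXS3* and further *MCS*, *HDS1* and *IDS* entries. All listed *DXR* and *CMK* unigenes are members, so *DXR* and *CMK* weigh most in counts of the 11. The study drew up that gene list on these same libraries, so how many of its entries respond is not independent evidence.

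Hairy roots are root cultures that grow from tissue carrying genes of an *Agrobacterium* Ri plasmid, here from infected leaf sections. All 5 libraries came from 40-day-old shake-flask cultures of such roots. One library was the control without elicitor at 0 h, MeJA-1h and MeJA-6h were treated with methyl jasmonate (MeJA, a hormone of the wound response) for 1 h and 6 h, and YE-1h and YE-12h were treated with yeast extract (YE, a crude microbial elicitor) for 1 h and 12 h. Each library held mixed RNA of replicate cultures, so there was 1 library per condition. How many transformed lines stood behind each library was not given in the sources used here. No library held roots kept for the same hours without elicitor or with the solvent alone, so time and handling cannot be told apart from the elicitor. In roots sampled in bulk, fewer cells of a type and less RNA per cell cannot be told apart either. The files name unigenes without genes, and root marker genes were not analysed here.

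The MEP pathway makes the 5-carbon unit isopentenyl diphosphate in plastids, while the mevalonate (MVA) pathway makes the same unit in the cytosol. Tanshinones are diterpenoid quinones of the *S. miltiorrhiza* root, and plastid diterpenoids are built mainly from MEP units. DXS (1-deoxy-D-xylulose 5-phosphate synthase) joins pyruvate and glyceraldehyde 3-phosphate in the first step, which is held to be a control point of the pathway. DXR (the reductoisomerase) makes methylerythritol phosphate, CMK phosphorylates its cytidyl form, MCS closes the ring, HDS opens it to hydroxymethylbutenyl diphosphate, and IDS (also called HDR) reduces that to the isomers used by prenyl transferases. The enzyme that adds the cytidyl group acts between DXR and CMK, and its unigene was not analysed here.

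The study designed quantitative PCR primers for 3 of these genes, and they are shown because no other letters of the *DXS2*, *DXR* and *CMK* sequences were at hand. A forward primer reads as the transcript does, and a reverse primer reads as the complementary strand. All letters are in lower case and each is written from 5′ to 3′.
DXS2 forward primer: ttggagattgggaagggaaggat
DXS2 reverse primer: aggcttgcagaatctcgcatcag
DXR forward primer: cgacgagaaaatcggatacctgg
DXR reverse primer: catacaagagcaggactcaaaccg
CMK forward primer: ggatgctgggatttcaagactca
CMK reverse primer: cactaaactgatttgctgcccaca
The primers are 23 or 24 bases long, and their GC content runs from 45.8% in the *CMK* reverse primer to 52.2% in the *DXS2* reverse and *DXR* forward primers. With 1 pair for the 4 *DXR* unigenes and 1 for the 3 *CMK* unigenes, the pairs are named by gene and not by unigene.

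The counted reads of the libraries ranged from 13395770 in the control to 20358510 in YE-12h. The 11 unigenes held between 116 reads (*MCS* in the control) and 27919 reads (*DXS2* in YE-12h), far over the floor of 3 reads. Levels are given as RPKM (the number of reads scaled to unigene length in kilobases and to library size). Folds are ratios of RPKM, with exact 95% binomial intervals on the log2 scale. A unigene rose or fell where the read test of edgeR gave a false discovery rate (FDR) under 0.01 and the fold was over 2 or under 0.5. Both the interval and the test cover counting error between 2 libraries and say nothing on the spread between cultures. These libraries hold no replicate of a condition. The study also measured *DXS2*, *DXR* and *CMK* by quantitative PCR on biological replicates, and those values were not used here.

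All 11 unigenes rose in YE-1h and 8 in YE-12h, MeJA-1h had 1 that rose and MeJA-6h 2, and none fell in any of these comparisons. Among all unigenes tested, YE-1h had 5.89% that rose and 4.83% that fell, YE-12h 2.83% and 3.77%, MeJA-1h 5.78% and 7.99%, and MeJA-6h 5.15% and 9.08%. The 4 comparisons share the control library. With TMM or DESeq2 scaling the number of members that rose in MeJA-6h was 5. If a coefficient of variation of 0.2 between cultures is assumed, 1 member would pass in YE-1h, 2 would in YE-12h and 0 with MeJA. Over all unigenes 1422 would then rise in YE-1h, 459 in YE-12h, and 1623 and 1305 with MeJA at 1 h and 6 h. The summed RPKM of all listed unigenes of the 6 genes was 457 without elicitor, 609 and 720 after 1 h and 6 h of MeJA, and 1364 and 1416 after 1 h and 12 h of YE. The sum was thus highest in the YE libraries, and it kept this order of libraries when *DXS2* was left out, at 345, 436, 514, 811 and 882.

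**Figure D1:**
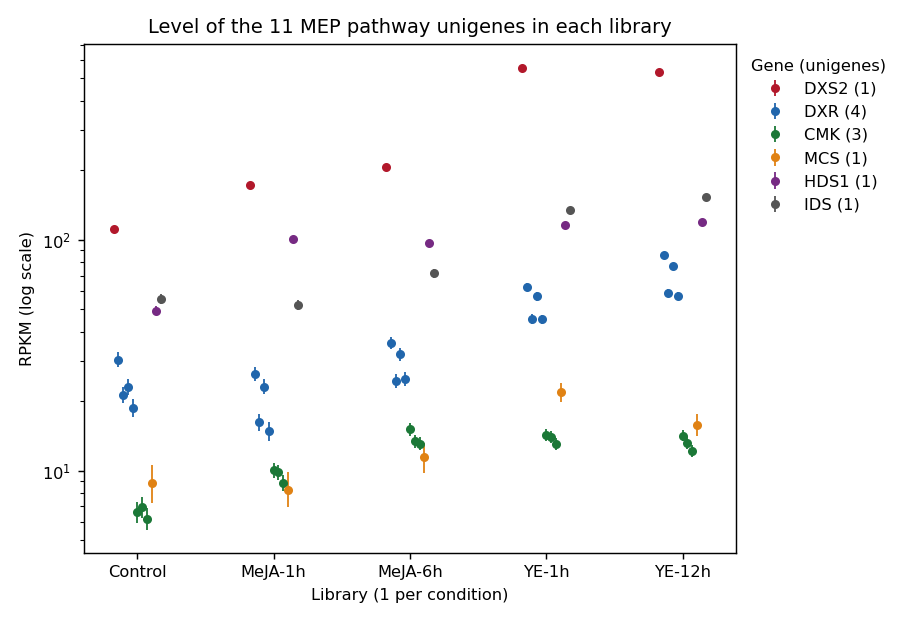
RPKM on a log axis of each of the 11 MEP unigenes (points, coloured by gene) in the 5 libraries, with exact 95% Poisson intervals for counting error. *DXS2* stands above every other unigene in all libraries, from 112 in the control to 553 in YE-1h, and *CMK* and *MCS* lie at the bottom.

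*DXS2* was the most abundant of the 11 unigenes in every library and had the largest fold of them with YE, though not with MeJA. Its RPKM value read 112 for untreated roots, 173 and 206 at 1 h and 6 h of MeJA, and 553 and 534 at 1 h and 12 h of YE. Both YE values lie above both MeJA values, which lie above the control, and the counting intervals of all 5 libraries stay apart. In YE-1h *DXS2* rose 4.95-fold (log2 2.31, interval 2.26 to 2.36), and in YE-12h 4.78-fold (log2 2.26, interval 2.21 to 2.31). Of all unigenes with a fold, 1.78% had a larger one in YE-1h and 0.644% in YE-12h. With MeJA the folds were 1.55 at 1 h (log2 0.63, interval 0.57 to 0.69) and 1.85 at 6 h (log2 0.89, interval 0.83 to 0.94). Both MeJA folds are beyond counting error (FDR 9.50e-106 and 2.59e-222) and under the 2-fold threshold. With library scaling by TMM or by the DESeq2 size factors the 6 h value passed 2-fold.

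The gene list holds a second DXS gene, *DXS3* (SmiContig8568), which catalyses the same step by its name. Its RPKM stood at 25.1 without elicitor, at 25.9 and 53.8 after 1 h and 6 h of MeJA, and at 10.02 and 18.4 after 1 h and 12 h of YE. Where *DXS2* was highest, *DXS3* was lowest. *DXS3* fell in YE-1h to 0.399 of the control (log2 -1.33, interval -1.49 to -1.17, FDR 6.46e-60) and rose in MeJA-6h 2.14-fold (log2 1.10, interval 0.99 to 1.22, FDR 1.92e-84). In YE-12h it stood at 0.734 of the control and in MeJA-1h at 1.03. The ratio of *DXS2* to *DXS3* on the RPKM scale was 4.45 in untreated roots, 6.68 and 3.83 with MeJA, and 55.2 and 29.0 with YE, earlier time first. In every library *DXS2* was the larger of the pair, and the gap was widest with YE.

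**Figure D2:**
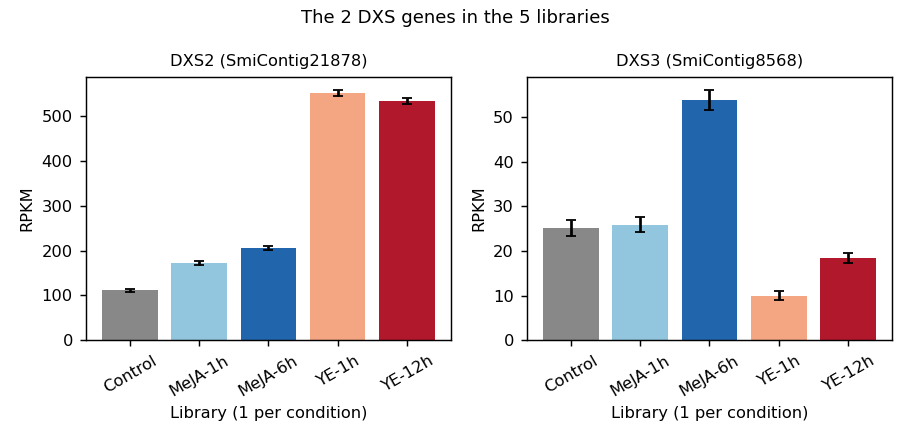
RPKM of *DXS2* (left) and *DXS3* (right) in the 5 libraries, each on its own linear axis from 0, with exact 95% Poisson intervals for counting error. *DXS2* is highest in YE-1h at 553, where *DXS3* is lowest at 10.02, and *DXS3* peaks in MeJA-6h at 53.8.

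The second enzyme, DXR, was covered by 4 unigenes that moved alike. RPKM of SmiContig13234 ran 30.3, 26.1, 35.7, 62.5 and 85.8, starting with the control and followed by both MeJA and then both YE libraries in order of time. In the same order SmiContig29364 had 21.3, 16.3, 24.5, 45.4 and 58.6, c13957_Sye-12h_g1_i1 had 23.1, 23.1, 32.0, 56.9 and 76.9, and c19879_Sye-1h_g1_i1 had 18.7, 14.8, 25.02, 45.2 and 57.0. All 4 were highest in YE-12h, next in YE-1h, then in MeJA-6h. They rose in YE-1h by 2.06-fold, 2.13-fold, 2.47-fold and 2.42-fold, and in YE-12h by 2.83-fold, 2.75-fold, 3.33-fold and 3.05-fold. Of all unigenes, 1.44% to 2.11% had a larger fold in YE-12h.

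With MeJA the *DXR* values stayed near the control. In MeJA-1h the log2 values were -0.21 (interval -0.36 to -0.07, FDR 0.0109) for SmiContig13234, -0.39 (-0.56 to -0.22, FDR 2.88e-05) for SmiContig29364, 0.00 (-0.16 to 0.16, FDR 1.00) for c13957_Sye-12h_g1_i1 and -0.33 (-0.52 to -0.15, FDR 0.00164) for c19879_Sye-1h_g1_i1. None approached 0.5-fold, the lowest being 0.763, and with TMM scaling SmiContig13234 lay above the control at 0.064. The median unigene with over 30 reads in both libraries stood at -0.28 in that comparison, so these 4 lay around the centre of all unigenes. In MeJA-6h all 4 were above the control, between 1.15-fold and 1.38-fold, and the interval of each excludes 0. SmiContig29364 missed the test (FDR 0.0251).

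The 4 *DXR* unigenes have implied lengths of 1871 to 2102 bp and kept similar shares of the reads of the gene. SmiContig13234 took 31.3% in the control (exact interval 29.5 to 33.2) and 28.7% in YE-1h (27.7 to 29.7). The largest shift of a share was that of c13957_Sye-12h_g1_i1, from 24.0% in the control (22.3 to 25.7) to 28.0% in MeJA-1h (26.3 to 29.8). Whether these 4 are alleles, isoforms or paralogs is not given, and reads of near-identical copies may have been split among them, so their single values are uncertain and their number is not a number of genes. Summed per gene, *DXR* went from 93.4 ± 1.90 RPKM in untreated roots to 278 ± 2.66 with YE at 12 h (counting SE, 1 library each).

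*CMK*, the kinase, had like levels with both elicitors at the later times. RPKM of SmiContig31978 was 6.61 in untreated roots, 10.04 and 15.2 after 1 h and 6 h of MeJA, and 14.3 and 14.2 after 1 h and 12 h of YE. In that order SmiContig31979 had 6.95, 9.84, 13.4, 14.0 and 13.2, and c24709_Sye-1h_g2_i2 had 6.19, 8.87, 13.1, 13.1 and 12.2. The control was lowest and MeJA-1h next for all 3 unigenes, and the other 3 libraries lay close together. In MeJA-6h SmiContig31978 rose 2.29-fold (log2 1.20, interval 1.02 to 1.38) and c24709_Sye-1h_g2_i2 2.12-fold (log2 1.08, interval 0.90 to 1.26), and SmiContig31979 stood at 1.93-fold (log2 0.95, interval 0.77 to 1.13). In YE-1h the 3 rose by 2.17-fold, 2.02-fold and 2.12-fold. In YE-12h only SmiContig31978 rose, 2.15-fold, while the others stood at 1.90-fold and 1.98-fold and passed with TMM scaling. These values straddle the 2-fold threshold within their counting intervals, so which of the 3 is called does not separate them. Each held 31.8% to 35.2% of the reads of the gene in every library, and the same doubt on shared reads holds. In MeJA-1h they stood at 1.52-fold, 1.42-fold and 1.43-fold, all beyond counting error.

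The *MCS* unigene c20596_Smj-6h_g1_i3, of the ring-closing enzyme, was the shallowest of the 11. Its reads numbered 116 in the control, 131 and 177 at 1 h and 6 h of MeJA, and 409 and 316 at 1 h and 12 h of YE, with RPKM of 8.86, 8.29, 11.4, 21.8 and 15.8. YE-1h was the peak. There it rose 2.47-fold (log2 1.30, interval 1.01 to 1.62, FDR 4.25e-19), and in YE-12h it stood at 1.78-fold (log2 0.83, interval 0.53 to 1.16). With MeJA it missed the test at both times. At 1 h the log2 value was -0.10 (interval -0.46 to 0.29, FDR 0.760, turning to 0.18 with TMM scaling). At 6 h it was 0.37 (FDR 0.0699), with an interval of 0.03 to 0.72 that excludes 0. The other 3 *MCS* unigenes of the list showed the same peak. SmiContig31411, c20492_Smj-1h_g1_i5 and SmiContig3265 rose 2.20-fold, 2.23-fold and 2.12-fold in YE-1h, and none of them rose in the other libraries.

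*HDS1*, which encodes an iron-sulfur enzyme, was the only one of the 11 unigenes past the threshold in MeJA-1h. Its SmiContig8237 stood at an RPKM of 49.3 before elicitation, at 101 and 96.7 with MeJA (1 h, 6 h), and at 116 and 119 with YE (1 h, 12 h). All 4 elicited libraries sat near 2-fold the control. It rose 2.05-fold in MeJA-1h (log2 1.04, interval 0.96 to 1.11, FDR 4.26e-163), 2.35-fold in YE-1h and 2.41-fold in YE-12h, and stood at 1.96-fold in MeJA-6h (log2 0.97, interval 0.89 to 1.05). A larger fold in MeJA-1h was seen for 7.29% of unigenes. The second full-sized unigene, c21578_Smj-0h_g2_i1, gave 1.96-fold, 1.81-fold, 2.25-fold and 2.27-fold against the control, MeJA before YE and earlier before later, and passed the threshold with YE alone at this scaling. SmiContig34251, with an implied length of 393 bp, is a further, short *HDS1* entry whose reads were 12 without elicitor, 34 and 18 with MeJA, and 128 and 31 with YE, earlier time first. It rose 7.51-fold in YE-1h (log2 2.91, interval 2.05 to 3.90) and held 1.04% of the *HDS1* reads there, so it added little to the gene.

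*IDS*, the last step, followed *DXR* rather than its neighbour *HDS1*. The RPKM of SmiContig18288 went from 55.4 without elicitor to 52.3 and 71.7 after 1 h and 6 h of MeJA, and to 134 and 154 after 1 h and 12 h of YE. The value in MeJA-1h was within counting error of the control (log2 -0.08, interval -0.19 to 0.02, FDR 0.215, and 0.19 with TMM scaling), and YE-12h was the highest. It rose 2.42-fold in YE-1h (log2 1.28, interval 1.19 to 1.37, FDR 6.32e-206) and 2.78-fold in YE-12h (log2 1.48, interval 1.39 to 1.56, FDR 2.09e-299). In MeJA-6h it stood at 1.29-fold (log2 0.37, interval 0.27 to 0.47). The other *IDS* unigene, SmiContig28796, rose 2.48-fold and 2.69-fold in the YE libraries and stood at 0.936 and 1.28 of the control with MeJA at 1 h and 6 h.

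**Figure D3:**
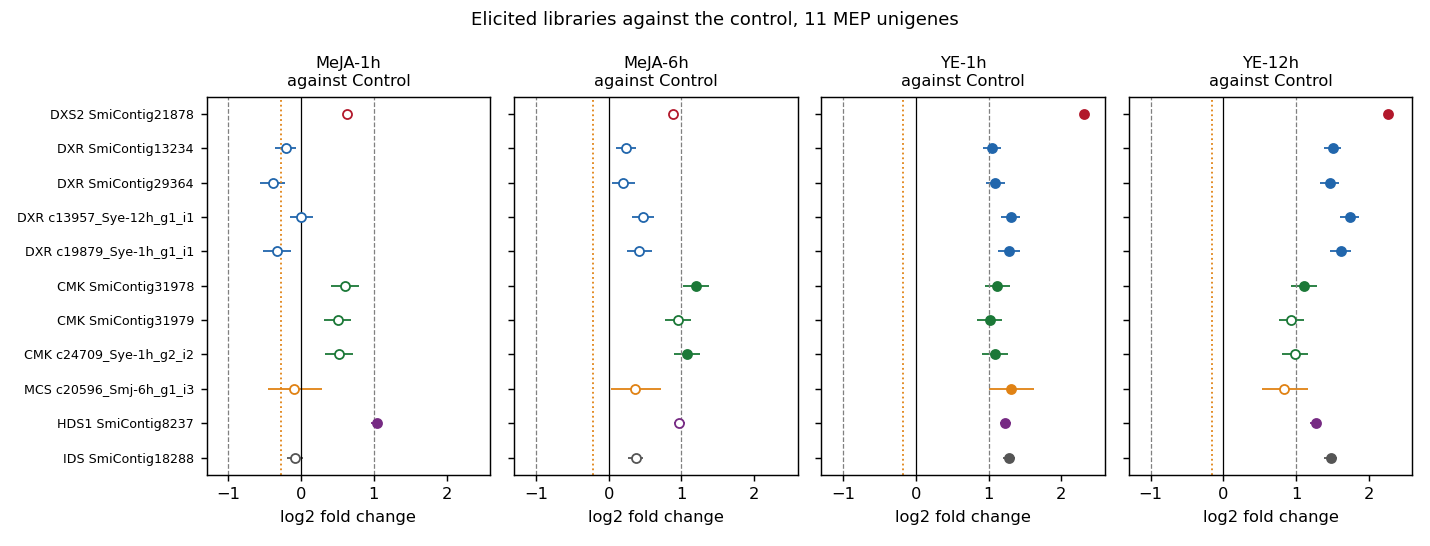
Log2 fold change of RPKM against the control for the 11 MEP unigenes in the 4 elicited libraries, with exact 95% binomial intervals for counting error. Filled points passed the test and the 2-fold threshold (dashed lines), and the dotted line is the median of all unigenes with over 30 reads in both libraries. All 11 points are filled in YE-1h and 8 in YE-12h, against 1 and 2 with MeJA.

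The order of the genes by level per length differed between libraries. With all listed unigenes of a gene summed, the control had *DXS2* at 112 ± 1.80, *HDS1* at 103 ± 1.77, *IDS* at 103 ± 2.10 and *DXR* at 93.4 ± 1.90 RPKM (counting SE), and then *MCS* at 26.5 and *CMK* at 19.7. *HDS1* and *IDS* do not differ beyond counting error there, and *DXS2* led by little. In MeJA-1h *HDS1* was the highest at 207, over *DXS2* at 173. In MeJA-6h *DXS2* led as in the control, at 206 over *HDS1* at 193. In YE-1h *DXS2* stood at 553, more than 2-fold the next genes, *IDS* at 252 ± 2.76 and *HDS1* at 248 ± 2.58, which lay within counting error of each other. In YE-12h *IDS* at 281 ± 2.82 and *DXR* at 278 ± 2.66 were likewise close, below *DXS2* at 534. The share of *DXS2* in the summed RPKM of the 6 genes was 24.4% in the control, 28.4% and 28.6% with MeJA, and 40.5% and 37.7% with YE. The last place changed too. *MCS* was over *CMK* in the control and both YE libraries, and *CMK* over *MCS* in both MeJA libraries, where their sums were 28.7 against 23.2 at 1 h and 41.7 against 30.7 at 6 h. By reads *CMK* held more than *MCS* in every library, such as 1076 against 479 in the control. Where *MCS* was over *CMK* by RPKM, that order thus rests on the implied lengths. These were 3937 to 4274 bp for the *CMK* unigenes and 983 to 1676 bp for the *MCS* unigenes.

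Set against all unigenes with over 30 reads in both libraries, the members lay toward the upper side. Their median log2 fold change was 1.23 in YE-1h, where the median of all such unigenes was -0.18, and 1.46 against -0.16 in YE-12h. In MeJA-6h it was 0.47 against -0.21, and in MeJA-1h 0.00 against -0.28. In MeJA-1h 6 of the 11 were above 0 and 9 above the median of all unigenes, so relative to that median few of them lay low. In the other 3 comparisons with the control all 11 were above both. TMM scaling brings the median of all unigenes to between -0.03 and 0.03 in the 4 comparisons, and the distance of the members from it stays the same. It also shifts the balance of calls among all unigenes toward rises, and in all but YE-1h from more falls to more rises. In MeJA-1h 4291 then rose and 2172 fell, in place of 3212 and 4441, and in MeJA-6h 3897 and 2960 in place of 2861 and 5046. In YE-1h 3941 rose and 1852 fell in place of 3270 and 2684, and in YE-12h 2058 and 1271 in place of 1571 and 2093.

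**Figure D4:**
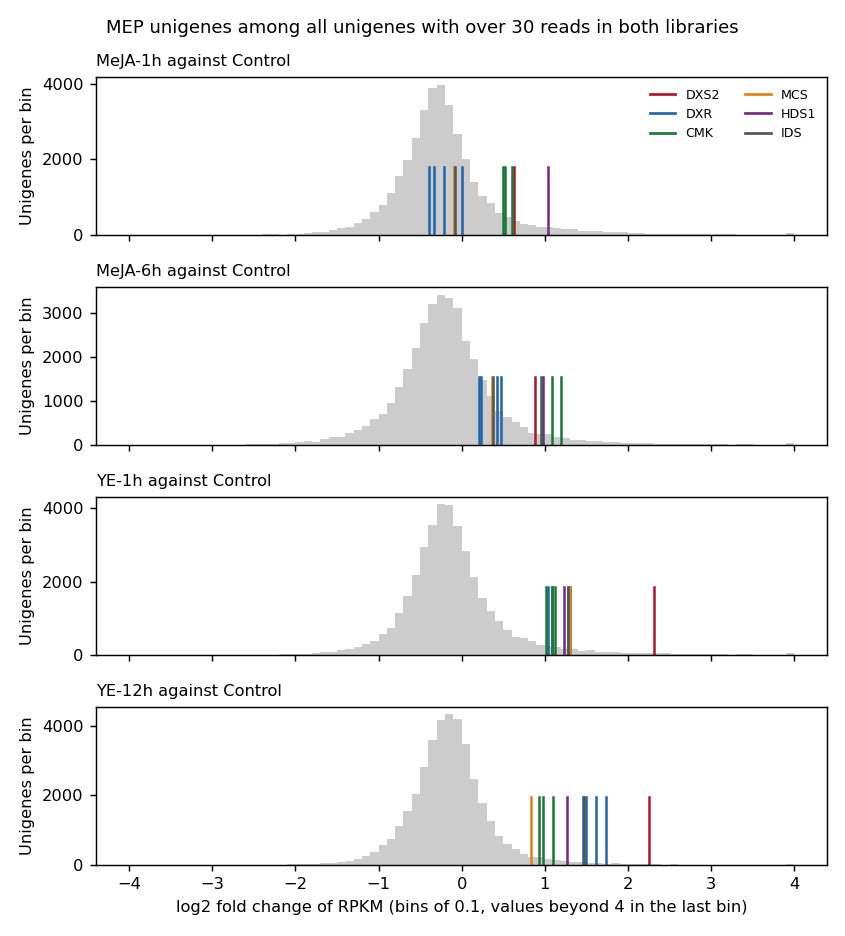
Number of unigenes with over 30 reads in both libraries per bin of 0.1 of log2 fold change against the control (grey), with the 11 MEP unigenes as vertical lines coloured by gene, whose height carries no value. The lines fall across the centre and right flank in MeJA-1h, with *HDS1* farthest right at 1.04, and sit clear of the centre in both YE libraries, with *DXS2* at 2.31 and 2.26.

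Between the times of 1 elicitor no member passed the threshold. From 1 h to 6 h of MeJA 0 of 11 rose and 0 fell, where 3.44% and 4.47% of unigenes did, but 10 of the 11 log2 values were above 0. The *DXR* unigenes had log2 values of 0.45, 0.59, 0.47 and 0.75 and the *CMK* unigenes 0.59, 0.45 and 0.56, while *DXS2* had 0.25 and *IDS* 0.45, all beyond counting error by the read test. *MCS* had 0.46 (FDR 0.0249) and *HDS1* -0.06 (FDR 0.109). *DXS3* rose 2.08-fold over the same hours. From 1 h to 12 h of YE again 0 rose and 0 fell, against 3.92% and 6.99% of all unigenes. The genes went different ways there within the threshold. The *DXR* unigenes stood at 1.26-fold to 1.37-fold and *IDS* at 1.15-fold, *DXS2* at 0.965, the *CMK* unigenes and *HDS1* within counting error of no difference (FDR 0.214 to 0.897), and *MCS* at 0.722 (log2 -0.47, interval -0.68 to -0.25, FDR 8.59e-05). The other 3 *MCS* unigenes stood at 0.633 to 0.795. Levels at 12 h of YE were thus within 1.5-fold of those at 1 h for every member. The short *HDS1* entry SmiContig34251 fell to 0.230 of its level at 1 h.

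The elicitors can be set side by side at the matched time of 1 h. In YE-1h against MeJA-1h 7 of the 11 unigenes rose and 0 fell, where 8.96% and 6.01% of unigenes did. They were *DXS2* at 3.20-fold (log2 1.68, interval 1.64 to 1.71), the 4 *DXR* unigenes at 2.39-fold to 3.05-fold, *MCS* at 2.63-fold and *IDS* at 2.57-fold. The 3 *CMK* unigenes stood at 1.42-fold to 1.48-fold and *HDS1* at 1.14-fold (log2 0.19, interval 0.14 to 0.25), all higher with YE beyond counting error. At this hour *CMK* and *HDS1* were thus on the lower side of the 2-fold threshold and the other 4 genes on the upper side. *DXS3* went the other way, at 0.387 of its MeJA-1h level. No library pairs MeJA and YE at the later times, where 6 h stands beside 12 h.

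**Figure D5:**
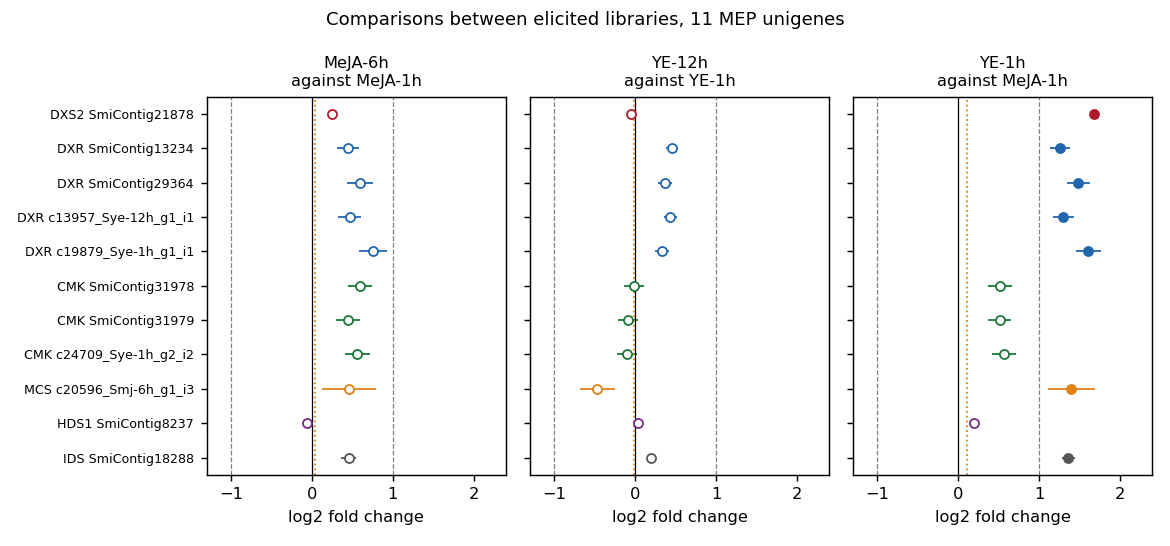
Log2 fold change of RPKM between elicited libraries for the 11 MEP unigenes, with exact 95% binomial intervals for counting error. Filled points passed the test and the 2-fold threshold (dashed lines), and the dotted line is the median of all unigenes with over 30 reads in both libraries. No point is filled between the times of 1 elicitor, and 7 are filled in YE-1h against MeJA-1h.

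Likeness of pattern was measured as the root mean square difference of log2 RPKM over the 5 libraries, after each unigene was centred on its own mean. Among the members it ran from 0.05 to 0.08 within *CMK* and from 0.08 to 0.13 within *DXR*. *DXR* and *IDS* lay at 0.09 to 0.13, as near as the *DXR* unigenes to each other, and *DXS2* and *CMK* were the most unlike pair of genes at 0.63 to 0.64. Among the named unigenes of the gene list, with unigenes of the same gene left out, the nearest to *DXS2* was *CPS5* (SmiContig26570), a copalyl diphosphate synthase gene, at 0.18. The nearest to *DXR* SmiContig13234 was *CYP76AH3* (c22489_Smj-1h_g1_i4), a cytochrome P450 gene of the tanshinone route, at 0.08, and the nearest to *HDS1* was *FPPS* (SmiContig27663), a farnesyl diphosphate synthase gene, at 0.13. *IDS* lay nearest to *DXR* c13957_Sye-12h_g1_i1 at 0.09, *CMK* SmiContig31978 to *HDS1* SmiContig8237 at 0.21, and *MCS* to *PMK* (SmiContig30555), phosphomevalonate kinase, at 0.22. Among 35771 unigenes with at least 30 reads in every library, between 1 (for *DXR* and *IDS*) and 117 (for *MCS*) were nearer, so the last is not a close match. With 5 libraries these distances are a description only.

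Other unigenes of the gene list are given as counts for chosen lists, which do not cover all of it. Of 7 other MEP unigenes, which are *DXS3* and further *MCS*, *HDS1* and *IDS* entries, YE-1h had 6 that rose and 1 that fell, YE-12h 2 that rose, MeJA-6h 1 (2 with TMM scaling) and MeJA-1h 0 (2 with TMM scaling). The MVA pathway list held 21 unigenes. *PMK* had more of them than any other gene, so it weighs most in the counts and the median of that list. Some *PMK* unigenes were shallow, such as c9683_Sye-1h_g1_i1 with 4 reads in the control. Of the 21 MVA unigenes, 10 and 4 rose with MeJA at 1 h and 6 h, and 19 and 4 with YE at 1 h and 12 h. With TMM scaling the numbers were 10 and 4 with MeJA and 21 and 6 with YE. Without it the median log2 fold change of the MVA list was 1.06 and 0.45 with MeJA and 1.35 and 0.64 with YE. The later median was thus the lower with each elicitor. The 7 other MEP unigenes had medians of 1.16 and 0.75 with YE, in the same order. For the 11 members YE-12h against YE-1h had a median of 0.04, with 6 of 11 above 0, of which 4 were *DXR* unigenes. Between YE-1h and YE-12h, 7 MVA unigenes fell, and no MEP member did. Of these 7, *HMGS* (SmiContig18784) was deeply read, with 26942 and then 14089 reads. Others were shallow, from *MDC* SmiContig6174 with 200 and 42 reads to *MK* c925_Sye-1h_g1_i1 with 39 and 1. The short *HDS1* entry outside the members, SmiContig34251, fell as well. The lists thus differ in depth. The downstream list held 15 unigenes, chosen from isopentenyl diphosphate isomerase to the tanshinone P450 genes and without *CPS5*. Of these, 5 and 3 rose with MeJA at 1 h and 6 h and 11 and 9 with YE at 1 h and 12 h. With TMM scaling the numbers were 5 and 5 with MeJA and 13 and 11 with YE. The medians of the downstream list, without that scaling, were 0.32 and 0.34 with MeJA and 1.20 and 1.45 with YE. The difference between the lists was not tested.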

How the data were processed

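RNA-seq of 5 hairy root libraries was analysed, 1 per condition, each of mixed RNA from replicate cultures. Per the labels libraries were made with an Illumina TruSeq kit, while the study's methods name a SMART cDNA kit. The labels' extraction text names another tissue than root, which was not followed. The authors filtered the reads with the NGS QC toolkit, built unigenes de novo with Trinity, and counted them on 55588 unigenes. The program that counted the reads was not given in the sources used here. The counts deposited by the authors are whole numbers without normalization. RPKM, scaled by the authors to unigene length and library total, was used as deposited. Of 76 low counts compared, 46 were at least 0.1 reads under the number implied by RPKM and 0 over, by up to 0.831, as estimated counts with decimals dropped would be. Unigene lengths were implied from both files. Gene names came from the study's supplementary gene list, and of 42046 genes in a RefSeq table none matched a unigene name.

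For each of 7 pairs of libraries, the binomTest function (edgeR 4.0.16, R 4.3.3) was run on the counts. Its p-values were adjusted by Benjamini-Hochberg across every unigene that had 1 or more reads in the pair. With 1 library per condition the quasi-likelihood test could not be fitted. The test compares 2 libraries, not conditions, and intervals and floors cover counting error only. A floor of 3 reads on 1 kb equals 0.224 RPKM for the control and 0.147 RPKM for YE-12h. A library at or under it was set to 3 reads. Other steps were run in Python 3.11.15 (scipy 1.17.1, numpy 2.4.6, pandas 2.3.3) and simulated data with known changes were used to test the scripts.

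All 11 members were named, with the other MEP unigenes of the gene list and, per gene, the listed unigene of another gene nearest in pattern. Other lists are given as counts. The members, lists and tests were chosen with earlier results of these data known. Alternatives were an FDR of 0.05, a fold threshold of 1.5, TMM scaling, DESeq2 1.42.0 size factors, 1 RPKM added to each value, a minimum of 30 reads, unigenes summed per gene, and the exactTest function of edgeR at 0.2 or 0.4 as the biological coefficient of variation.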

Additional observations from a re-analysis of the deposited data

Results flagged for a closer look

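Of the 4 *DXR* unigenes, 3 lay below the control in MeJA-1h and above it in MeJA-6h, opposite directions at the 2 times of 1 treatment. For SmiContig13234 the log2 values were -0.21 and 0.24, for SmiContig29364 -0.39 and 0.20, and for c19879_Sye-1h_g1_i1 -0.33 and 0.42. The values come from 1 library per time and share the control. Set directly against MeJA-1h, MeJA-6h had log2 values of 0.45, 0.59 and 0.75, all beyond counting error and none past 2-fold. Whether the difference holds between cultures was not tested. With TMM scaling or DESeq2 size factors, SmiContig13234 was above the control at 1 h as well, at 0.06 and 0.07. SmiContig29364 then lay at -0.11 with both and c19879_Sye-1h_g1_i1 at -0.05 with both, nearer the control than without such scaling. Without it the median unigene with over 30 reads in both libraries stood at -0.28 in MeJA-1h against the control.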

How the results depend on the processing

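No paired analysis was possible because each condition had 1 library, and for the same reason no library could be left out. The number of members that fell was 0 under every alternative in all 7 comparisons, and an FDR of 0.05, a minimum of 30 reads and summing per gene moved no number of members that rose by over 1.5 times. With a fold threshold of 1.5, 3 members rose in MeJA-1h in place of 1, 5 in MeJA-6h in place of 2, and 3 in MeJA-6h against MeJA-1h in place of 0. Over all unigenes 4256 in place of 3212 then rose in MeJA-1h and 4139 in place of 2861 in MeJA-6h. For MeJA-6h against MeJA-1h the number over all unigenes was 3848 in place of 1912. In MeJA-6h, 1 member rose with 1 RPKM added, 5 with TMM scaling and 5 with DESeq2 size factors. With an assumed coefficient of variation of 0.2 between cultures no member rose in either MeJA library (0 and 0), 1 rose in YE-1h in place of 11, 2 in YE-12h in place of 8, and 3 in YE-1h against MeJA-1h in place of 7. With 0.4 no member rose in any of these 5 comparisons. Both coefficients are assumptions, since these libraries do not measure the spread between cultures. Scaling turned some small values over. In MeJA-1h against the control, *DXR* SmiContig13234 went from -0.21 to 0.064 with TMM and 0.070 with DESeq2 size factors, *MCS* from -0.10 to 0.18 and 0.19, and *IDS* from -0.08 to 0.19 and 0.20. In YE-12h against YE-1h, *CMK* SmiContig31978 went from -0.01 to 0.0017 and 0.00025. TMM moved the median of the members in MeJA-1h from 0.00 to 0.28. Among the members depth limits *MCS* most, with 116 to 409 reads. The non-member *HDS1* entry SmiContig34251 had 12 to 128.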
